A study of Mus musculus with 6 samples.

Results

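The respiratory chain of mitochondria passes electrons from nutrients to oxygen through complexes I to IV, of which I, III and IV pump protons across the inner membrane, and complex V, the ATP synthase, uses the proton gradient to make ATP. Complexes I, III, IV and V are built from subunits of both the nuclear and the mitochondrial genome, whereas complex II, which is also an enzyme of the citric acid cycle, is wholly nuclear-encoded. In the small intestine the absorptive cells of the villus are rich in mitochondria and use ATP to drive the ion gradients behind nutrient uptake.

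The genes described here are the nuclear-encoded subunits of the 5 complexes. They were chosen by symbol (Nduf, Sdha to Sdhd, Uqcr, Cox4 to Cox8 and Atp5, without 14 entries marked as pseudogenes by an ending in -ps), which gave 100 of the 54012 genes in the table. By symbol, 41 belong to complex I, 4 to complex II, 8 to complex III, 21 to complex IV and 18 to complex V. The remaining 8 are Ndufaf genes, which encode assembly factors of complex I and not subunits, and they are described apart. Ndufa4 and Ndufa4l2 were placed with complex IV, where the NDUFA4 protein is now assigned. Cyc1 of complex III does not match these symbols and is counted with other genes of the chain.

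Small intestine of 3 mice labelled TLR4ΔIEC and of 3 mice labelled wild type (WT) was profiled by RNA sequencing of total RNA; all mice were aged 8 to 12 weeks and share a collection date. The question, by the series title, is how gene expression responds when TLR4, a sensor of bacterial lipopolysaccharide, is depleted in the intestine. The labels used here give neither strain, sex, the promoter behind the deletion, nor the stretch of intestine, and no treatment is named for either group. The values are TPM, a transcript abundance corrected for length and brought to a common total.

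Tlr4 (chromosome 4, 66827584 to 66930284, plus strand, GRCm38) read 1.29, 1.22 and 4.81 TPM in the libraries labelled TLR4ΔIEC, against 0.65, 0.57 and 0.70 TPM in the WT libraries. Each library labelled TLR4ΔIEC thus lay above each WT library, which is not the direction of a loss (log2 fold change 0.92, SE 0.40, limma adjusted p = 0.243; over the alternatives 0.0839 to 0.480). The table has no exon-level values and the labels do not say which exons were deleted, so this gene does not check the labels, and every direction below compares libraries as labelled. All 14 enterocyte markers examined, among them Vil1 and Alpi, had a mean of at least 1 TPM. TLR4ΔIEC replicate 2 stood apart from the other libraries, with 12221 genes at 1 TPM or more against 13197 to 13634, and 12836.4 TPM of the rRNA entry Rn18s against 3805.6 to 7032.3 TPM elsewhere. Alpha-defensin and mitochondrially encoded genes, Rn18s, Cmss1 and Gphn together took 12.3 to 23.1% of the TPM in the libraries labelled TLR4ΔIEC and 32.03 to 35.77% in the WT libraries. Sequencing depth cannot be read from TPM and is unknown.

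Many promoters of respiratory chain genes are known targets of nuclear respiratory factor 1 (NRF1), of the ETS factor GABPA and of YY1, and the promoters of the members were therefore searched. RefSeq promoters (GRCm38.p6, 250 bases before to 50 after the start) were found by symbol for 77 member genes. The NRF1 palindrome, formed by GCGCA and its reverse complement TGCGC, was present in 7 of 77 (9.09%), against 1.07% of all 27025 genes with a promoter and 2.27% of the 9868 among them that were tested here. It was found in Atp5g2, Atp5k, Cox6a1, Ndufa11, Ndufaf4, Ndufaf5 and Uqcrc1. The 5 matches that lie wholly before the start site are these, 5′ to 3′ on the strand of the gene, with 15 bases on either side and the palindrome in capitals.
Atp5g2: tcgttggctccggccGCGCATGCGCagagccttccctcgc
Atp5k: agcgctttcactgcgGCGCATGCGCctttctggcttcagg
Cox6a1: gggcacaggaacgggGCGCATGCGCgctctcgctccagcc
Ndufa11: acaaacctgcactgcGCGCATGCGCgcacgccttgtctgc
Ndufaf4: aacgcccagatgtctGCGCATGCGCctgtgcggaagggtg
These windows lie at chr15:102671065-102671104 (minus strand), chr5:108434425-108434464 (minus), chr5:115349096-115349135 (minus), chr17:56717687-56717726 (plus) and chr4:24897955-24897994 (plus), in the order shown. The palindrome begins 42, 50, 162, 60 and 113 bases before the start site.

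The other motifs were searched on both strands in the same windows, and no motif contains another. The GABPA core CCGGAAG was present in 19 of 77 member promoters (24.7%), against 9.93% of all and 20.1% of the tested genes. The YY1 sequence AAGATGGCG was present in 8 (10.4%), against 1.64% of all and 3.63% of the tested genes. TATAAA was present in 8 (10.4%), against 15.7% of all and 9.39% of the tested genes. Atp5k and Cox6a1 held both the NRF1 and the GABPA motif. The tested members with the NRF1 palindrome had a median log2 fold change of 0.25, against 0.26 for the members without it, and those with the YY1 sequence had 0.32, against 0.25 without it. A match is a description of the letters and not of a bound site.

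At the level of single genes no respiratory chain member passed the test between genotypes. Of the 100 members, 91 had a mean of at least 1 TPM and were tested, and 0 of these 91 passed a limma adjusted p of 0.05, where 0.119% of all 13458 tested genes passed. An unadjusted limma p under 0.05 was reached by 8 of the 91 members, against 21.2% of all tested genes. The log2 fold change was above 0 in 87 of 91 members, against 68.1% of all tested genes, and its median was 0.26, against 0.16 over all tested genes. The design text gives 3 mice per genotype, and the labels name no litters or cages, so neither could be allowed for. The limma p-values set the genotype difference against the spread within genotype in these 6 samples, moderated over all tested genes. In whole tissue, fewer cells of a type and less RNA per cell cannot be told apart.

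The sum over the 92 subunit genes was 24508.0, 35662.7 and 31722.4 TPM in the libraries labelled TLR4ΔIEC, against 23048.1, 28070.3 and 24363.7 TPM in the WT libraries. This was 3.06 ± 0.566% of all TPM in the libraries labelled TLR4ΔIEC and 2.52 ± 0.260% in WT (SD, n = 3 each). TLR4ΔIEC replicates 2 and 3 were high, while TLR4ΔIEC replicate 1 lay inside the WT range, so the groups overlapped. TLR4ΔIEC replicate 2 was the highest library for 57 of 91 members and TLR4ΔIEC replicate 3 for 26. The lowest library was WT replicate 1 for 49 members, WT replicate 3 for 24 and TLR4ΔIEC replicate 1 for 15. Over all tested genes the pattern was another, with TLR4ΔIEC replicate 2 highest in 21.7% and lowest in 31.7%.

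**Figure D1:**
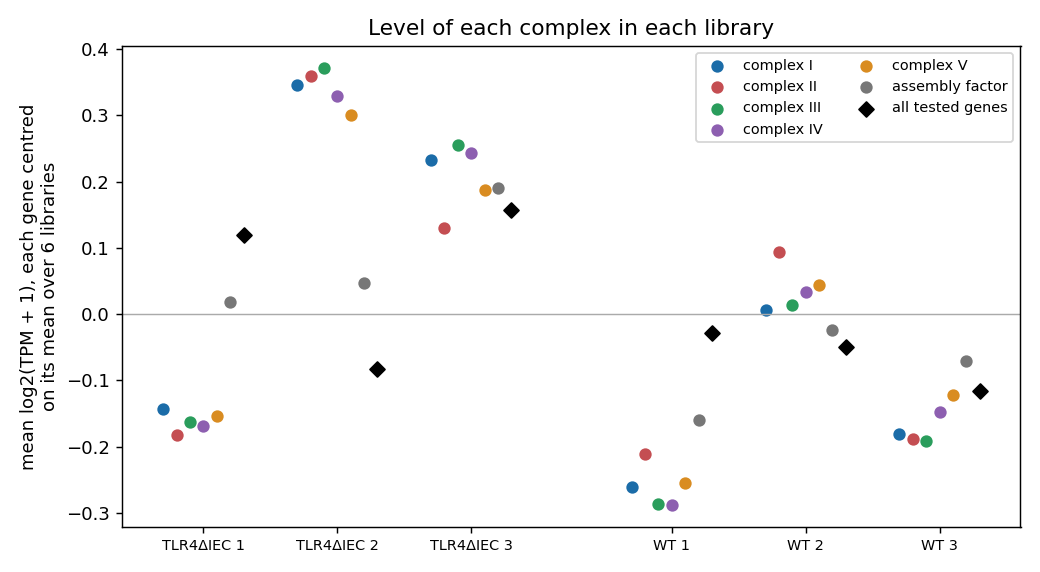
Mean log2(TPM + 1) of the tested members of each complex, each gene centred on its mean over the 6 libraries (y axis, log2), in the 3 libraries labelled TLR4ΔIEC and the 3 WT libraries (x axis); black diamonds are all tested genes. In TLR4ΔIEC replicate 2 the 5 complexes sit at 0.30 to 0.37 and all tested genes at −0.08, and in TLR4ΔIEC replicate 1 the complexes sit below 0 and all tested genes at 0.12.

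In all 5 complexes TLR4ΔIEC replicate 2 was the highest library and TLR4ΔIEC replicate 3 the next. In TLR4ΔIEC replicate 1 the mean centred log2 level lay between −0.18 (complex II) and −0.14 (complex I), in replicate 2 between 0.30 (complex V) and 0.37 (complex III), and in replicate 3 between 0.13 (complex II) and 0.26 (complex III). In WT the range over the complexes was −0.29 to −0.21 in replicate 1, 0.01 to 0.09 in replicate 2 and −0.19 to −0.12 in replicate 3. Within TLR4ΔIEC the SD of these means over 3 libraries was 0.24 to 0.28, and within WT 0.14 to 0.17. The assembly factors had another order and lay at 0.02, 0.05 and 0.19 in the libraries labelled TLR4ΔIEC, against −0.16, −0.02 and −0.07 in WT.

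The difference between the members and all genes, taken over all lengths, changed sign without TLR4ΔIEC replicate 2. Without that library the median log2 fold change of the 91 members was 0.17, below the 0.21 of all tested genes, and without TLR4ΔIEC replicate 1 it was 0.42, against 0.15. Without WT replicate 1 the medians were 0.19 for the members and 0.17 for all tested genes. With array weights, which count less reliable libraries less, they were 0.20 and 0.19, and among genes averaging at least 5 TPM they were 0.27 and 0.24. The direction itself depended on the scaling. Under median-of-ratios scaling 64 of 91 members were above 0 (48.5% of all tested genes), with a median of 0.06 against −0.01. With the dominant genes named above left out of the total, 30 of 91 were above 0 (34.7% of all tested genes), with a median of −0.07 against −0.13. In that scaling 1 member lay higher in each library labelled TLR4ΔIEC than in each WT library (6.13% of all tested genes) and 4 lay lower (12.8%). No member passed an adjusted p of 0.05 under any of the 14 alternatives.

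Cell type markers and RNA measures differed over the same libraries, and their part in these values was not tested. The 6 Paneth cell markers, none at 0, summed to 50618.5, 12436.3 and 16576.1 TPM in the libraries labelled TLR4ΔIEC, against 74606.6, 74355.4 and 83395.6 TPM in WT. They were lowest in TLR4ΔIEC replicates 2 and 3, where the chain genes were high. The 14 enterocyte markers summed to 22958.7, 27998.2 and 26024.3 TPM in the libraries labelled TLR4ΔIEC, against 19451.4, 22821.8 and 22094.5 TPM in WT. Of these 14 markers 9 had a log2 fold change above 0 (68.1% of all tested genes) and 5 below (median 0.27). In each library labelled TLR4ΔIEC 5 lay higher than in each WT library (24.1% of all tested genes) and 4 lower (3.53%). The pair that passed the threshold (0.119% of all tested genes), Lct and Apoa4, fell (log2 fold changes of −4.93 and −2.55, limma adjusted p = 0.0317 and 0.035). The 7 goblet markers summed to 16507.4, 25631.2 and 16429.5 TPM in the libraries labelled TLR4ΔIEC, against 10943.9, 9555.4 and 10001.0 TPM in WT. The 8 stem and cycling crypt markers summed to 363.2, 164.3 and 173.8 TPM in the libraries labelled TLR4ΔIEC, against 351.9, 375.8 and 361.6 TPM in WT. The 7 plasma and B cell markers summed to 2956.8, 1129.3 and 4279.0 TPM in the libraries labelled TLR4ΔIEC, against 9573.2, 8417.5 and 8651.7 TPM in WT. Of them 4 lay lower in each library labelled TLR4ΔIEC than in each WT library (3.53% of all tested genes). The log2 fold change was below 0 in 8 of 8 T and NK cell markers, 5 of 6 macrophage and dendritic markers, 6 of 6 fibroblast markers and 5 of 5 endothelial markers, where 68.1% of all tested genes were above 0. No marker of these lists passed the threshold. The 8 T and NK cell markers summed to 125.9, 73.4 and 141.2 TPM in the libraries labelled TLR4ΔIEC, against 78.3, 278.9 and 299.1 TPM in WT. The 6 macrophage and dendritic markers summed to 136.6, 39.5 and 153.6 TPM in the libraries labelled TLR4ΔIEC, against 115.9, 108.3 and 121.3 TPM in WT. The 6 fibroblast markers summed to 245.8, 48.5 and 128.9 TPM in the libraries labelled TLR4ΔIEC, against 211.9, 153.6 and 130.2 TPM in WT, and the sum of the 5 endothelial markers averaged 22.2 ± 9.71 TPM in the libraries labelled TLR4ΔIEC and 31.1 ± 5.47 TPM in WT (SD, n = 3 each). TLR4ΔIEC replicate 2, where the chain genes were highest, had the lowest sum of the 6 libraries in each of these 5 lists, and no marker in them was at 0 in all libraries. Of the enteric neuron and glia and the adipocyte markers 2 each averaged at least 1 TPM, and none passed the threshold.

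In 9 members each library labelled TLR4ΔIEC lay above each WT library, which is 9.89% of the members tested, where 24.1% of all tested genes did so. No member lay lower in each library labelled TLR4ΔIEC, as 3.53% of all tested genes did. The 9 were Ndufa3, Ndufb4c, Ndufb1, Ndufv2, Ndufa6 and Ndufa11 of complex I, Cox6b2 of complex IV, and the assembly factors Ndufaf3 and Ndufaf7. Of these, Ndufb4c and Ndufb1 were placed by symbol and have no protein-coding transcript in the annotation used here. The count turned on single libraries: it was 63 (69.2%, with 34.8% of all tested genes) without TLR4ΔIEC replicate 1 and 33 (36.3%, with 29.3% of all tested genes) without WT replicate 2. Under median-of-ratios scaling 1 member was higher in this sense (9.69% of all tested genes).

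**Figure D2:**
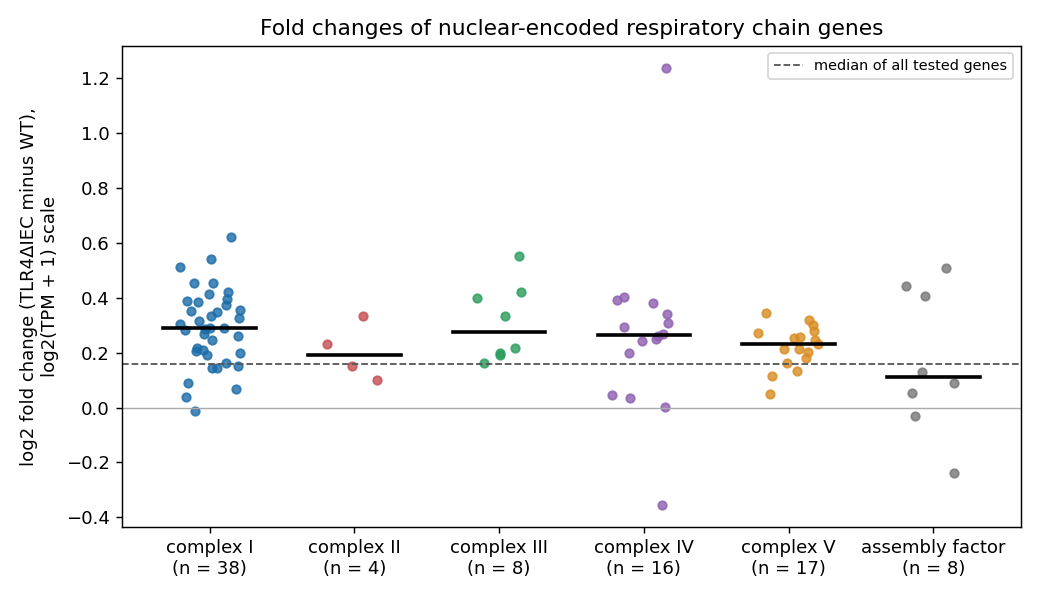
Log2 fold change (TLR4ΔIEC minus WT, log2(TPM + 1) scale, y axis) of each tested member by complex (x axis); black bars are the medians of the groups and the dashed line is the median of all tested genes, 0.16. Most members lie between 0 and 0.6, Cox6b2 lies at 1.24, Cox4i2 at −0.35, and the assembly factors spread on both sides of 0.

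Complex I, the NADH dehydrogenase, had a median log2 fold change of 0.29 over 38 tested members (range −0.01 to 0.62), with 37 above 0. Ndufa3 (chromosome 7, 3617373 to 3620327, plus strand), a small accessory subunit, had the smallest p of all members. It read 199.8, 253.6 and 193.4 TPM in the libraries labelled TLR4ΔIEC, against 127.1, 153.4 and 136.8 TPM in WT. The groups did not overlap, with means of 215.6 ± 33.1 TPM in the libraries labelled TLR4ΔIEC and 139.1 ± 13.3 TPM in WT (SD, n = 3 each; log2 fold change 0.62, SE 0.16, limma adjusted p = 0.115, and 0.0821 to 0.452 over the alternatives). The 100 bases before its start site (RefSeq, GRCm38.p6, chr7:3617273-3617372, plus strand) are shown because this gene came nearest to the threshold, with the SP1 motif GGGCGG in capitals.
Ndufa3: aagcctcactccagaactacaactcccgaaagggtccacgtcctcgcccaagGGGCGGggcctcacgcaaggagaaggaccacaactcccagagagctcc
That motif, searched on both strands, was present in 45.5% of member promoters, 38.2% of all and 67.4% of those of tested genes. An exon of Ndufa3 overlaps the gene Tfpt on the opposite strand, and the strand setting of the counting is unknown here.

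Ndufb4c, a short gene whose symbol places it with the accessory subunit gene Ndufb4, read 175.2, 181.6 and 188.3 TPM in the libraries labelled TLR4ΔIEC, against 120.1, 152.9 and 126.1 TPM in WT (log2 fold change 0.45, SE 0.14, limma adjusted p = 0.152). Ndufb4 itself was far lower, at 31.2 ± 6.30 TPM in the libraries labelled TLR4ΔIEC and 24.0 ± 2.85 TPM in WT, with a log2 fold change of 0.35. Reads that fit both copies can be counted for either, so the level of each is uncertain. Ndufa6 and Ndufb9, accessory subunits of the LYR family, were the most abundant complex I members. Ndufa6 read 295.6, 383.4 and 424.1 TPM in the libraries labelled TLR4ΔIEC, against 240.9, 271.6 and 285.7 TPM in WT, without overlap (log2 fold change 0.45, SE 0.18, limma adjusted p = 0.214). Ndufb9 averaged 363.8 ± 62.6 TPM in the libraries labelled TLR4ΔIEC and 288.7 ± 34.5 TPM in WT (log2 fold change 0.33), and its groups overlapped.

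The 7 nuclear core subunits, which form the catalytic core of the arm outside the membrane, had a median log2 fold change of 0.15, against 0.30 for the 31 accessory members tested. The core genes were also longer, with a median listed length of 1623 bases, against 683 bases for the accessory members. The part of length in this difference was not tested. Ndufv2, an iron-sulfur subunit of the NADH-binding arm, was the core member that differed most. It read 111.9, 146.8 and 159.3 TPM in the libraries labelled TLR4ΔIEC, against 83.0, 108.6 and 99.5 TPM in WT, with no overlap (log2 fold change 0.51, SE 0.18, limma adjusted p = 0.182). Ndufs1, another iron-sulfur subunit of that arm, averaged 50.5 ± 4.35 TPM in the libraries labelled TLR4ΔIEC and 51.1 ± 5.93 TPM in WT (log2 fold change −0.01, limma adjusted p = 0.969), a sign that changed with the library left out. The difference between these genes was not tested. Ndufb1, an accessory subunit, averaged 64.1 ± 8.66 TPM in the libraries labelled TLR4ΔIEC and 47.5 ± 4.17 TPM in WT, and Ndufa11, an accessory subunit of the membrane arm, 303.3 ± 72.6 TPM in the libraries labelled TLR4ΔIEC and 227.3 ± 8.55 TPM in WT. Exons of Ndufb1 and Ndufa11 overlap Cpsf2 and Vmac on the opposite strand.

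Complex II, succinate dehydrogenase, had a median log2 fold change of 0.19 over its 4 members, all above 0. Sdhb, the iron-sulfur subunit, read 224.1, 360.5 and 275.1 TPM in the libraries labelled TLR4ΔIEC, against 236.1, 266.3 and 218.7 TPM in WT, and its groups overlapped (log2 fold change 0.23, SE 0.20, limma adjusted p = 0.558). The membrane anchor Sdhc averaged 151.1 ± 46.6 TPM in the libraries labelled TLR4ΔIEC and 116.8 ± 17.5 TPM in WT (log2 fold change 0.33), and the other anchor Sdhd 246.8 ± 38.1 TPM in the libraries labelled TLR4ΔIEC and 230.1 ± 38.3 TPM in WT (log2 fold change 0.10). Sdha, the flavoprotein, stood at 192.0 ± 16.5 TPM in the libraries labelled TLR4ΔIEC and 172.9 ± 16.8 TPM in WT. Both scalings turned the sign of Sdhd, and that of Sdhb turned with the dominant genes left out.

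Complex III, the cytochrome bc1 complex, had a median log2 fold change of 0.28 over 8 members, all above 0 (0.16 to 0.55). Uqcrq, a small accessory subunit, differed most. It read 412.1, 822.4 and 723.0 TPM in the libraries labelled TLR4ΔIEC, against 387.3, 490.4 and 406.8 TPM in WT, so that TLR4ΔIEC replicate 1 lay among the WT libraries (log2 fold change 0.55, SE 0.28, limma adjusted p = 0.302). Without that library the log2 fold change of Uqcrq was 0.85 (limma adjusted p = 0.0564, and 0.0564 to 0.656 over the alternatives). Uqcrb read 345.1, 442.2 and 568.9 TPM in the libraries labelled TLR4ΔIEC, against 282.1, 345.5 and 369.6 TPM in WT, with overlap (log2 fold change 0.42). The hinge protein gene Uqcrh averaged 693.0 ± 159.4 TPM in the libraries labelled TLR4ΔIEC and 517.7 ± 63.0 TPM in WT (log2 fold change 0.40), and Uqcr10, the most abundant of the 8, 745.4 ± 141.2 TPM in the libraries labelled TLR4ΔIEC and 587.7 ± 86.2 TPM in WT (log2 fold change 0.34). The larger core genes stood lower, with Uqcrc1 at 385.1 ± 74.2 TPM in the libraries labelled TLR4ΔIEC against 334.8 ± 38.5 TPM in WT, and Uqcrc2 at 205.0 ± 19.9 TPM in the libraries labelled TLR4ΔIEC against 178.6 ± 19.1 TPM in WT.

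**Figure D3:**
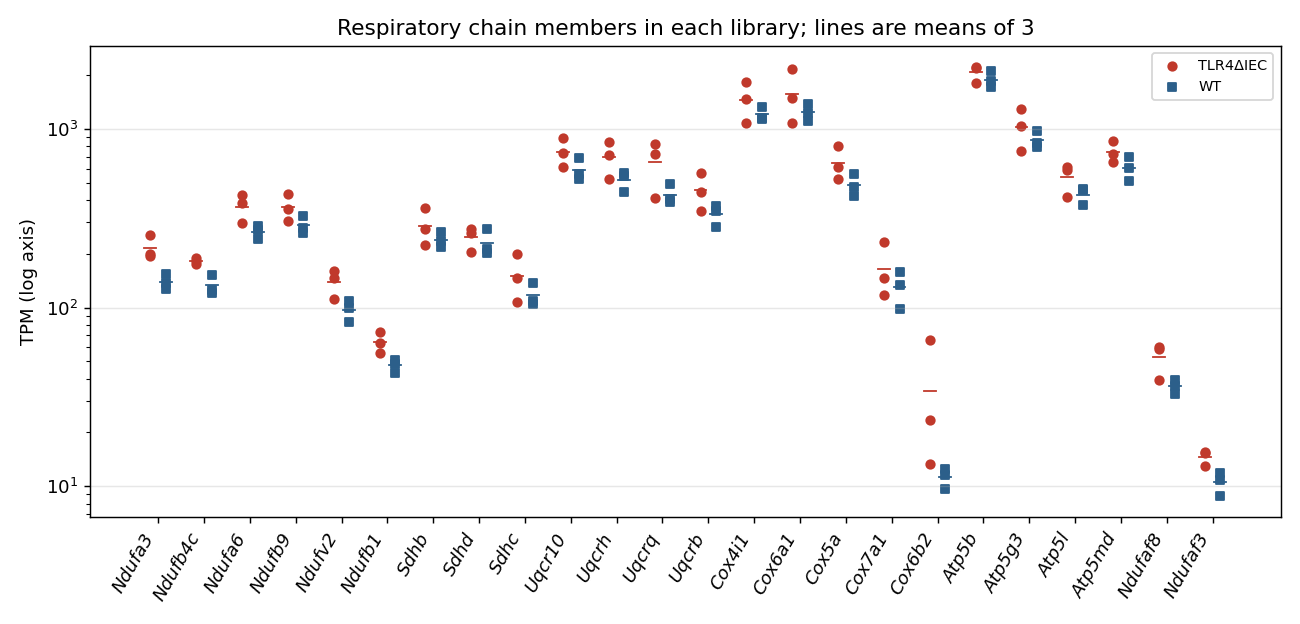
TPM (log axis) of 24 members in each library; red circles are the 3 libraries labelled TLR4ΔIEC, blue squares the 3 WT libraries, and lines the means. Ndufa3, Ndufb4c, Ndufa6, Ndufv2, Ndufb1, Cox6b2 and Ndufaf3 show no overlap between the groups, and the levels run from 8.84 TPM for Ndufaf3 in WT to 2210.2 TPM for Atp5b in TLR4ΔIEC replicate 2.

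Complex IV, cytochrome c oxidase, had a median log2 fold change of 0.26 over 16 tested members. Its most abundant genes were Cox6a1 and Cox4i1, the widely used forms of 2 subunits that also have tissue-specific forms. Cox6a1 read 1078.7, 2159.9 and 1490.5 TPM in the libraries labelled TLR4ΔIEC, against 1231.4, 1380.4 and 1107.0 TPM in WT (log2 fold change 0.29, SE 0.28, limma adjusted p = 0.587). Cox4i1 read 1082.7, 1821.6 and 1476.8 TPM in the libraries labelled TLR4ΔIEC, against 1128.9, 1331.4 and 1152.3 TPM in WT (log2 fold change 0.25). In both genes TLR4ΔIEC replicate 1 was below each WT library and replicates 2 and 3 were above each. Cox5a, a subunit on the matrix side, averaged 646.0 ± 140.2 TPM in the libraries labelled TLR4ΔIEC and 483.7 ± 67.5 TPM in WT (log2 fold change 0.40, limma adjusted p = 0.316).

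The tissue-specific forms of complex IV were mostly at or near 0. Cox8c and Cox7b2 were listed at 0 in all 6 libraries. So was Cox6c2, which was placed by symbol and has no protein-coding transcript in the annotation used here. Cox6a2, the heart and skeletal muscle form, read 0.00, 0.00 and 0.12 TPM in the libraries labelled TLR4ΔIEC, against 0.20, 0.10 and 0.29 TPM in WT. Cox8b, likewise a muscle form, read 0.00, 0.00 and 0.51 TPM in the libraries labelled TLR4ΔIEC, against 2.10, 0.41 and 0.39 TPM in WT. Cox4i2, known from lung, averaged 1.23 ± 0.726 TPM in the libraries labelled TLR4ΔIEC and 1.76 ± 0.369 TPM in WT (log2 fold change −0.35, limma adjusted p = 0.548). Its share of the Cox4i1 and Cox4i2 total was 0.0925 ± 0.0583% in the libraries labelled TLR4ΔIEC and 0.146 ± 0.0248% in WT.

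Cox7a1 and Cox6b2 were well above 0. Cox7a1, the muscle form of subunit 7a, read 116.9, 232.0 and 145.7 TPM in the libraries labelled TLR4ΔIEC, against 98.5, 157.6 and 133.4 TPM in WT (log2 fold change 0.31, limma adjusted p = 0.582). It made up 37.0 ± 7.09% of the sum of Cox7a1 and Cox7a2 in the libraries labelled TLR4ΔIEC and 35.8 ± 1.58% in WT. Muscle marker levels are given beside it, and their part in its level was not tested. The 8 smooth muscle markers summed to 450.8, 250.6 and 909.9 TPM in the libraries labelled TLR4ΔIEC, against 942.9, 410.9 and 369.1 TPM in WT, so that the library with most Cox7a1, TLR4ΔIEC replicate 2, had the lowest sum. The 8 striated muscle markers, with Myh1 and Myh4 at 0 in all libraries, summed to 20.8, 61.6 and 90.3 TPM in the libraries labelled TLR4ΔIEC, against 35.7, 8.10 and 6.46 TPM in WT. Only 2 of these 8 averaged at least 1 TPM, and a single gene made up most of the sum in every library.

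Cox6b2, the testis form of subunit 6b, had the largest fold change of the tested members. It read 23.6, 66.0 and 13.4 TPM in the libraries labelled TLR4ΔIEC, against 11.5, 12.5 and 9.70 TPM in WT. The groups did not overlap, but TLR4ΔIEC replicate 3 lay within 1 TPM of the highest WT library (log2 fold change 1.24, SE 0.51, limma adjusted p = 0.225). Without TLR4ΔIEC replicate 2 the log2 fold change was 0.63, and it was 1.74 without TLR4ΔIEC replicate 3. Its common counterpart Cox6b1 read 794.1, 1262.5 and 988.4 TPM in the libraries labelled TLR4ΔIEC, against 683.9, 880.8 and 729.4 TPM in WT (log2 fold change 0.39). Cox6b2 was thus 3.06 ± 1.82% of the pair in the libraries labelled TLR4ΔIEC and 1.46 ± 0.180% in WT.

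Among the other forms, Ndufa4 read 280.3, 349.6 and 381.5 TPM in the libraries labelled TLR4ΔIEC, against 276.9, 395.1 and 340.3 TPM in WT, the fold change nearest to 0 of all tested members (log2 fold change 0.0019, SE 0.20, limma adjusted p = 0.997). Its relative Ndufa4l2, known as a hypoxia-induced gene, averaged 2.16 ± 1.55 TPM in the libraries labelled TLR4ΔIEC and 1.99 ± 1.05 TPM in WT (log2 fold change 0.03). Cox8a, Cox7a2 and Cox7a2l, the last a supercomplex factor, had log2 fold changes of 0.26, 0.24 and 0.20, with overlapping groups.

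Complex V had a median log2 fold change of 0.23 over 17 tested members, all above 0 and within the narrow range of 0.05 to 0.35. Atp5b, the catalytic beta subunit, was the most abundant of all members. It read 2201.0, 2210.2 and 1797.9 TPM in the libraries labelled TLR4ΔIEC, against 1846.0, 2095.5 and 1709.3 TPM in WT (log2 fold change 0.13, SE 0.20, limma adjusted p = 0.737). TLR4ΔIEC replicates 1 and 2 were the highest libraries for Atp5b, and TLR4ΔIEC replicate 3 lay among the WT libraries. Its ratio to Atp5a1, the alpha subunit with which it alternates in the catalytic head, was 3.269, 2.729 and 2.687 in the libraries labelled TLR4ΔIEC, against 2.897, 2.674 and 2.595 in WT.

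Subunit c, which forms the rotor ring, comes from Atp5g1, Atp5g2 and Atp5g3, whose mature proteins are the same. Atp5g3 read 748.6, 1289.5 and 1039.0 TPM in the libraries labelled TLR4ΔIEC, against 794.9, 970.2 and 831.4 TPM in WT (log2 fold change 0.21, SE 0.24, limma adjusted p = 0.645). It made up 67.3 ± 0.929% of the sum of the 3 genes in the libraries labelled TLR4ΔIEC and 66.5 ± 1.47% in WT. Atp5g1 made up 31.97 ± 1.002% in the libraries labelled TLR4ΔIEC and 32.78 ± 1.617% in WT (log2 fold change 0.16). Atp5g2 made up 0.732 ± 0.0963% in the libraries labelled TLR4ΔIEC and 0.687 ± 0.164% in WT (log2 fold change 0.28), so the division among the 3 genes differed by less than the spread between replicates. Atp5l and Atp5md, which encode small membrane subunits, had the smallest p of the complex. Atp5l read 418.2, 592.3 and 608.3 TPM in the libraries labelled TLR4ΔIEC, against 372.6, 458.1 and 452.9 TPM in WT (log2 fold change 0.32, limma adjusted p = 0.404), and Atp5md averaged 743.4 ± 104.7 TPM in the libraries labelled TLR4ΔIEC and 603.4 ± 92.2 TPM in WT (log2 fold change 0.30). A second entry named Atp5o was listed at 0 in all libraries.

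The 8 Ndufaf assembly factors of complex I were low, with means of 4.42 to 52.85 TPM in the libraries labelled TLR4ΔIEC and 5.38 to 36.27 TPM in WT, and had a median log2 fold change of 0.11, with 6 above 0. Ndufaf8 read 39.2, 58.9 and 60.4 TPM in the libraries labelled TLR4ΔIEC, against 36.5, 39.4 and 32.9 TPM in WT, with overlap (log2 fold change 0.51, SE 0.19, limma adjusted p = 0.200). Ndufaf3 read 12.9, 15.6 and 15.3 TPM in the libraries labelled TLR4ΔIEC, against 10.8, 11.9 and 8.84 TPM in WT, without overlap (log2 fold change 0.44, SE 0.16, limma adjusted p = 0.187), and an exon of it overlaps Impdh2 on the opposite strand. Ndufaf7, a methyltransferase that acts on a core subunit, stood at 10.98 ± 0.510 TPM in the libraries labelled TLR4ΔIEC and 9.94 ± 0.410 TPM in WT (log2 fold change 0.13). Ndufaf2 had a log2 fold change of 0.09, while Ndufaf4 and Ndufaf1 had −0.24 and −0.03.

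Ratios within a library do not depend on the scaling between libraries and allow the complexes to be compared. Complex V held the largest share of the subunit TPM, at 36.7, 33.4 and 33.8% in the libraries labelled TLR4ΔIEC, against 36.4, 36.1 and 35.8% in WT. Complex IV followed, at 27.0, 30.2 and 28.8% in the libraries labelled TLR4ΔIEC, against 27.7, 28.3 and 28.7% in WT. The groups overlapped in both, with TLR4ΔIEC replicate 1 on the far side of WT from replicates 2 and 3. The share of complex II was 2.91, 2.89 and 2.79% in the libraries labelled TLR4ΔIEC, each below the 3.05, 3.08 and 2.92% in WT. The share of complex III was 12.26, 12.64 and 13.28% in the libraries labelled TLR4ΔIEC, each above the 11.95, 12.24 and 12.20% in WT. These separations were narrow, with TLR4ΔIEC replicate 1 at 12.26% beside WT replicate 2 at 12.24% in complex III. In complex II TLR4ΔIEC replicate 1 stood at 2.91% beside WT replicate 3 at 2.92%. The complex III sum leaves out Cyc1, and whether the groups stay apart with it was not tested. Complex I held 21.1 ± 0.232% in the libraries labelled TLR4ΔIEC and 20.5 ± 0.327% in WT, with overlap. The median listed length was 2065.5 bases in complex II and 541 bases in complex III, and its part in these shares was not tested. The shares are sums over chosen genes and were not tested.

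**Figure D4:**
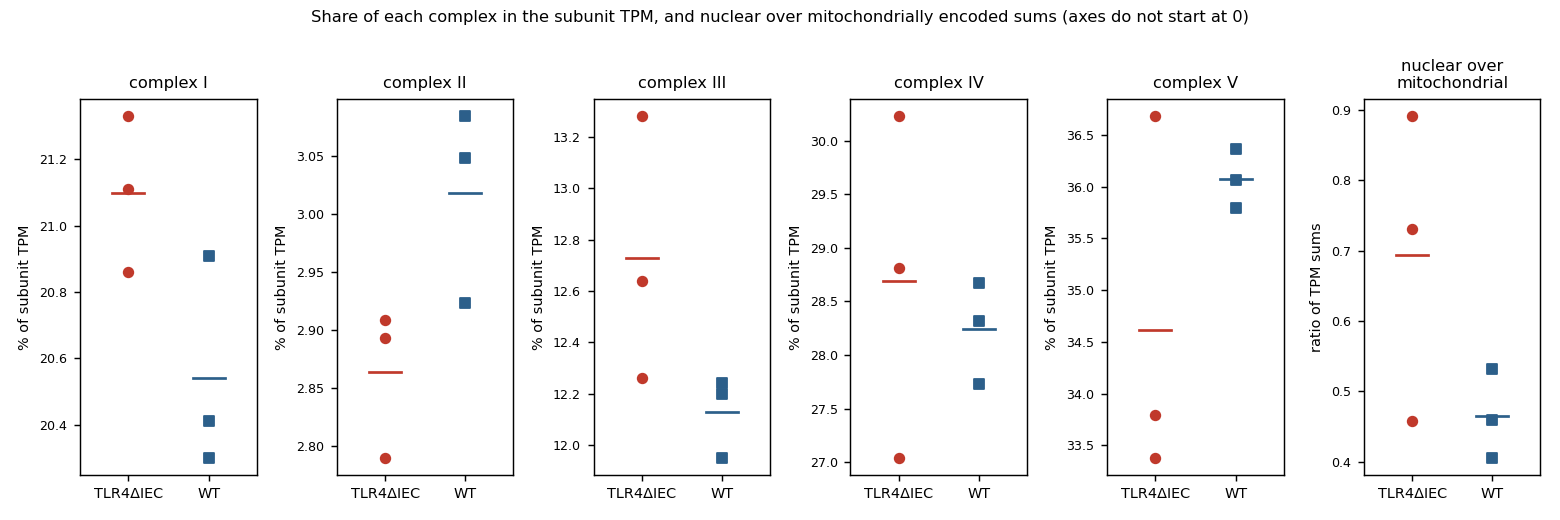
Share of each complex in the summed TPM of the 92 subunit genes (%, first 5 panels) and the ratio of the nuclear subunit sum to the sum of the 13 mitochondrially encoded subunits (last panel), with 1 point per library, TLR4ΔIEC in red and WT in blue, and lines at the means; the axes do not start at 0. The groups are narrowly apart for complexes II and III, and they overlap in the other 4 panels. The sum of complex III leaves out Cyc1.

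The mitochondrially encoded subunits mostly had the opposite sign, but the libraries labelled TLR4ΔIEC were split. Of these 13 genes 12 had a log2 fold change below 0 (median −0.45), where 68.1% of all tested genes were above 0. By limma 0 of the 13 passed an adjusted p of 0.05 (0.119% of all tested genes). An unadjusted limma p under 0.05 was reached by 0 of the 13 (21.2% of all tested genes). The 13 genes took 3.352, 4.003 and 6.937% of all TPM in the libraries labelled TLR4ΔIEC, against 5.02, 5.27 and 6.01% in WT. TLR4ΔIEC replicates 1 and 2 thus lay below each WT library, and TLR4ΔIEC replicate 3 lay above each. The nuclear subunit sum over the mitochondrial sum was 0.731, 0.891 and 0.457 in the libraries labelled TLR4ΔIEC, against 0.459, 0.532 and 0.406 in WT. TLR4ΔIEC replicates 1 and 2 were above WT, and replicate 3 lay inside the WT range. By complex, the mean of this ratio was 0.743 ± 0.229 in the TLR4ΔIEC group and 0.427 ± 0.0574 in WT for complex I, and 1.25 ± 0.469 in the TLR4ΔIEC group and 0.689 ± 0.0870 in WT for complex III. It was 0.576 ± 0.0891 in the TLR4ΔIEC group and 0.521 ± 0.0819 in WT for complex IV, and 0.643 ± 0.288 in the TLR4ΔIEC group and 0.385 ± 0.0687 in WT for complex V. In complex III the 3 ratios in the libraries labelled TLR4ΔIEC, 1.199, 1.738 and 0.803, each exceeded the WT ratios of 0.690, 0.775 and 0.601. The mitochondrial sum of complex III is mt-Cytb alone. That of complex IV was mostly mt-Co1, at 10788.6 to 18348.8 TPM, against 68.8 to 495.1 TPM for mt-Co2 and mt-Co3. That of complex V was mostly mt-Atp8, at 12620.5 to 30492.7 TPM, against 230.2 to 681.9 TPM for mt-Atp6. These ratios thus rest largely on single genes, and how reads were divided between genes was not tested.

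Levels differed far more between members than between libraries. The median over tested members was 209.3 TPM in the libraries labelled TLR4ΔIEC and 178.6 TPM in WT. Among the complexes it was lowest in complex I, with 165.4 TPM in the libraries labelled TLR4ΔIEC and 129.6 TPM in WT, and highest in complex V, with 551.6 TPM in the libraries labelled TLR4ΔIEC and 454.8 TPM in WT. The rank order of the 91 members was nearly the same in every library, with Spearman's rho of 0.977 to 0.994 between any 2 libraries, given as a description because the genes share libraries. The members were short, with a median listed length of 758 bases, against 2568 bases for all tested genes.

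Shorter members had a larger median fold change. The 40 tested members listed under 700 bases had a median log2 fold change of 0.31, against 0.20 for the 51 of 700 bases or more, and Spearman's rho of length and fold change was −0.44 over the 91 members, against −0.03 over all tested genes. Of the members under 700 bases 12.5% lay higher in each library labelled TLR4ΔIEC than in each WT library, and so did 11.0% of all tested genes of that length. Of the longer members 7.84% did, against 25.2% of all tested genes of that length. All tested genes had the opposite order, with medians of 0.08 under 700 bases and 0.16 at 700 bases or more. Without TLR4ΔIEC replicate 2 the medians were 0.21 and 0.10 for shorter and longer members. Those of all tested genes of these lengths were then 0.11 and 0.22. The shorter members thus stayed above genes of their length without that library, and the longer members lay below theirs.

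The members also divided over which of the libraries labelled TLR4ΔIEC was highest, and this went with base composition. Of the 91 tested members 59 were highest in replicate 2, 30 in replicate 3 and 2 in replicate 1. Those highest in replicate 2 had a median GC content of 53.8% (quartiles 50.2 and 56.0%, n = 58), and those highest in replicate 3 had 48.7% (quartiles 44.6 and 53.4%, n = 29). Over the 89 members with an annotated coding transcript, Spearman's rho of GC content and the log2 difference between replicates 2 and 3 was 0.40. The same relation was seen over all tested genes with such a transcript (rho 0.30, n = 11998), so it is not particular to the chain. Spearman's rho of GC content and the fold change between genotypes was 0.16 over the members.

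**Figure D5:**
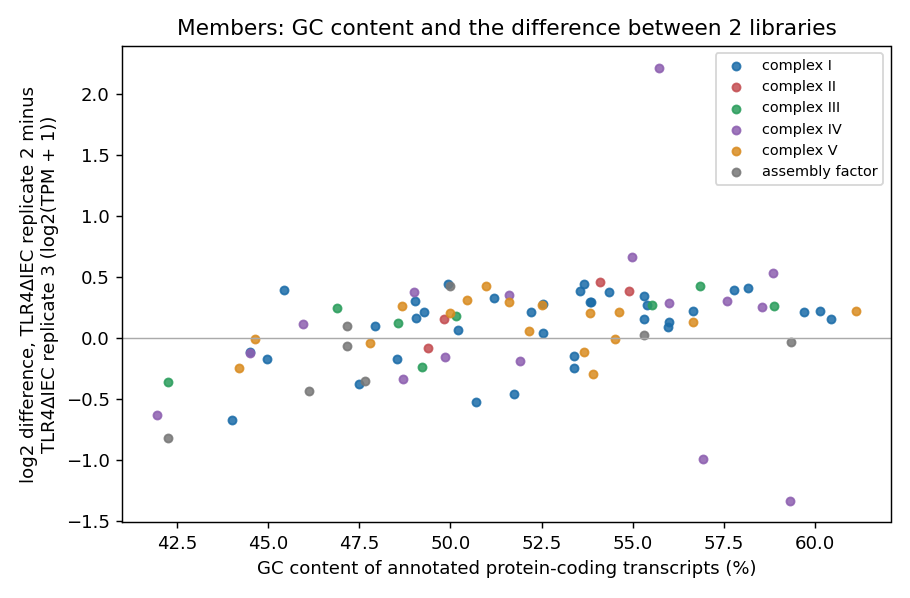
GC content of annotated coding transcripts (x axis, %) and the log2(TPM + 1) difference between TLR4ΔIEC replicates 2 and 3 (y axis) for 89 members, coloured by complex. The points rise with GC content (Spearman's rho 0.40), and the 3 farthest from 0 are Cox6b2 at 2.22, Ndufa4l2 at −1.33 and Cox4i2 at −0.99.

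Other mitochondrial gene groups, listed by function, are given for comparison, and by limma 0 of their members passed an adjusted p of 0.05. An unadjusted p under 0.05 was reached by 1 of 8 further chain genes, 6 of 35 assembly factors, 14 of 78 mitochondrial ribosomal protein genes, 2 of 17 citric acid cycle genes, 2 of 12 import genes and 3 of 16 regulators, where 21.2% of all tested genes reached it. The 8 chain genes, among them Cyc1, had a median log2 fold change of 0.19, with 6 above 0 and 2 below (lowest −0.47). Of these 8 the electron carrier Cycs had the smallest p, reading 94.6, 90.7 and 91.4 TPM in the libraries labelled TLR4ΔIEC against 47.4, 69.7 and 72.1 TPM in WT, without overlap (log2 fold change 0.56, SE 0.18, limma adjusted p = 0.158). Of 35 other assembly factors tested, 29 were above 0 (median 0.23), and the copper chaperone Sco1 had a log2 fold change of 0.56. Of 78 mitochondrial ribosomal protein genes 71 were above 0 (median 0.23) and 21 lay higher in each library labelled TLR4ΔIEC, where 68.1% and 24.1% of all tested genes did so. Among them Mrps35 had 0.74 (limma adjusted p = 0.0941), which passed without TLR4ΔIEC replicate 1 (adjusted p = 0.0463, and up to 0.362 over the alternatives). The 17 citric acid cycle and pyruvate dehydrogenase genes had a median of 0.10, with Suclg2 at 0.41, and the 12 outer membrane and import genes a median of 0.17, with the channel gene Vdac3 at 0.46.

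The 16 regulators of mitochondrial biogenesis had a median of 0.11, with 12 above 0. The nuclear receptor gene Esrra had the smallest p, reading 148.0, 185.9 and 181.2 TPM in the libraries labelled TLR4ΔIEC, against 130.4, 144.4 and 120.0 TPM in WT (log2 fold change 0.38, SE 0.15, limma adjusted p = 0.219). Cytosolic ribosomal protein genes, which are also short and abundant, had a median of 0.17 over 80 tested, with 75 above 0. Their sums were 67609.1, 79662.6 and 83348.7 TPM in the libraries labelled TLR4ΔIEC, against 66879.4, 70660.2 and 61291.6 TPM in WT.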

How the data were processed

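Total RNA of small intestine from 6 mice was sequenced, and the authors deposited TPM per gene. Per the submitters' processing notes, fastp, HISAT and RSEM were used on GRCm38.p5; versions, strand setting and annotation are not given in the sources used here. Of the value columns, 2 hold the authors' group means and were not used. Depth cannot be had from TPM, and counting error is therefore not shown. A larger share taken by a few genes lowers the TPM of all others.

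Values were taken as log2(TPM + 1), so that fold changes of low genes are understated. The 13458 genes averaging 1 TPM or more were fitted together by genotype with limma 3.58.1 (lmFit and eBayes with trend, R 4.3.3), two-sided, with Benjamini-Hochberg adjustment over all of them and a threshold of 0.05. The code was tested on simulated data. Rows with no gene name (312) name no member. Fold changes are TLR4ΔIEC minus WT. Gene positions are from GENCODE M21 by gene identifier. An exon overlap with another gene was found for 33 tested members, 30 of them on the opposite strand. Of the members, 6 were at 0 in every library and 3 were above 0 but under the filter. Promoters are from RefSeq, and 22 member symbols had no entry. Sums and medians over lists are descriptions.

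The members and lists were chosen with earlier results of these data known. Genes named were the most abundant pair and the pair of smallest p in each group, isoform pairs, subunit c genes, Tlr4, and the gene of smallest p or any past the threshold in other lists. In 1 of those lists that gene is not reported here. Ndufv2, Ndufb1, Ndufa11, Ndufaf1, Ndufaf4, Ndufaf7, Ndufs1, Ndufb4, Sdha, Uqcrc1, Uqcrc2, Atp5a1, Cox7b2, Cox6c2, mt-Co1, mt-Co2, mt-Co3, mt-Cytb, mt-Atp6 and mt-Atp8 were named after their values were seen. The 14 alternatives changed the pseudocount (0.1, 5), the filter (none, 5 TPM), the scaling, the library weights, the replicate block, or left out each library.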

Additional observations from a re-analysis of the deposited data

How the results depend on the processing

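By limma 0 members passed an adjusted p of 0.05 under any of the 14 alternatives. Members with an unadjusted limma p under 0.05 ranged from 0 to 40. The 0 was under median-of-ratios scaling, where 12.5% of all tested genes reached it. The 40 (43.96%) was without TLR4ΔIEC replicate 1, where 27.4% of all tested genes did. The 16 genes called among all genes became 0 with no filter (3377 at an unadjusted p under 0.05), 7 under the 5 TPM filter, 136 with array weights and 1 with the replicate block. Leaving out 1 library gave 0 to 367 calls, with 0 without WT replicate 2 (1681 at an unadjusted p under 0.05) and without TLR4ΔIEC replicate 2 (2651), 3 without WT replicate 3, 5 without TLR4ΔIEC replicate 3, 32 without WT replicate 1 and 367 without TLR4ΔIEC replicate 1. Same-numbered libraries had correlations of deviations of −0.04, 0.04 and 0.12. With 3 libraries per genotype, and differently numbered libraries not compared, these values cannot decide whether the numbers pair the libraries.

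The 9 members whose groups did not overlap became 1 under median-of-ratios scaling (higher, as were 9.69% of all tested genes). Without the dominant genes they were 5, with 1 higher (6.13% of all tested genes) and 4 lower (12.8%). With 1 library left out they numbered 10 to 63. The 10 (10.99%) without TLR4ΔIEC replicate 2 were all higher, against 36.2% of all tested genes. The 63 (69.2%) without TLR4ΔIEC replicate 1 were all higher, against 34.8%. The medians without the dominant genes were −0.0321 (complex I), −0.13 (II), −0.0473 (III), −0.0602 (IV), −0.0916 (V) and −0.19 (assembly factors), and that of the assembly factors was −0.0745 under median-of-ratios scaling. Leaving out 1 library kept every complex median above 0 (lowest 0.07, complex II). The cause was not tested.

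Over 52 genes followed through the alternatives, 39 values changed sign, 680 kept sign and side of the threshold, and 1 passed it (Mrps35, 0.84 without TLR4ΔIEC replicate 1). Without the dominant genes the log2 fold changes that changed sign were −0.0934 (Sdhb), −0.22 (Sdhd), −0.0301 (Cox6a1), −0.0748 (Cox4i1), −0.19 (Atp5b), −0.11 (Atp5g3), −0.0038 (Atp5l), −0.0218 (Atp5md), −0.22 (Ndufaf2), −0.0132 (Cox7a1), −0.0794 (Cox7a2), −0.13 (Cox7a2l), −0.0651 (Cox8a), −0.32 (Ndufa4), −0.19 (Ndufa4l2), −0.16 (Atp5g1), −0.0177 (Atp5g2) and −0.17 (Ndufaf7). Under median-of-ratios scaling they were −0.10 (Sdhd), −0.0638 (Atp5b), −0.10 (Ndufaf2), −0.20 (Ndufa4), −0.10 (Ndufa4l2), −0.0355 (Atp5g1), −0.0499 (Ndufaf7) and −0.0242 (mt-Co1). With array weights they were −0.0551 (Ndufa4) and 0.0573 (Ndufaf1). With 1 library left out, the ranges were −0.13 to 0.13 (Ndufa4), −0.34 to 0.33 (Ndufa4l2), −0.0569 to 0.38 (Atp5g1), −0.11 to 0.0554 (Ndufs1) and −0.14 to 0.10 (Ndufaf1).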
